A study of Chlorella variabilis with 6 samples.

Results

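CHLNCDRAFT_6687, labelled Aureochrome4, and CHLNCDRAFT_137888, labelled C1 subunit of CHLAMY1, are genes of the unicellular green alga Chlorella variabilis whose labels name a light receptor and a clock-related RNA-binding protein. They are 2 of the 9625 genes in the count tables, found there by identifier, and were picked because the study discussed them together as circadian genes that were lower in LOG OX1. LOG OX1 is 1 transgenic line of strain NC64A that was electroporated with a plasmid (pMDC32) that holds CvarLOG1 behind the constitutive 35S promoter. CvarLOG1 is the gene of the cytokinin-activating enzyme LONELY GUY, and cells with the plasmid were selected on hygromycin. WT is the strain it was made from. RNA came from 3 LOG OX1 and 3 WT cultures, grown under alternating light and dark and harvested at 14 dpi (days post inoculation), 1 h before dark. The values are read counts per gene, with totals between 10180885 and 12546100 per library, and normalized counts are these counts brought to 1 common library size.

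Aureochromes are blue-light receptors first described in yellow-green algae and also known from diatoms and brown algae. They join a light-sensing LOV domain (light, oxygen or voltage) to a basic leucine zipper (bZIP) that binds DNA, and so act as light-dependent transcription factors. In green algae and plants, the LOV receptors known best are the phototropins, in which LOV domains are joined to a serine/threonine kinase. CHLAMY1 is an RNA-binding complex of the green alga Chlamydomonas reinhardtii that binds UG repeats in messenger RNAs with a daily rhythm. It is made of a C1 subunit with KH (K homology) RNA-binding domains and a C3 subunit with RNA recognition motifs, and changing the amount of either subunit disturbs circadian rhythms in that alga.

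The labels rest on similarity searches that the study ran, and they do not name 1 protein family for CHLNCDRAFT_6687. The protein name, Aureochrome4, comes from a match in Heterosigma akashiwo, a raphidophyte outside the green algae, and its gene ontology term is DNA-binding transcription factor activity. The pathway column places the same gene among protein kinases, although aureochromes have no kinase domain. CHLNCDRAFT_137888 takes its label from Yamagishiella unicocca, a green alga of the volvocine line, with the symbol CRB1 and the term RNA binding and with no pathway. Protein sequences were not analysed here, so the domains of either gene were not examined, and the genes are called aureochrome-labelled and C1-labelled below.

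CvarLOG1 (CHLNCDRAFT_28106) had 437, 464 and 410 normalized counts in LOG OX1 replicates 1, 2 and 3, against 227, 227 and 266 in WT replicates 1, 2 and 3. It was 1.82-fold higher in LOG OX1, as the labels of the 6 libraries say (log2 fold change 0.86, standard error 0.086, edgeR adjusted p = 1.42e-07). Every adjusted p here is Benjamini-Hochberg adjusted over all genes tested, from the quasi-likelihood test of edgeR.

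The aureochrome-labelled gene was far lower in LOG OX1. Its raw counts were 155, 203 and 161 in LOG OX1 replicates 1, 2 and 3, against 1091, 1158 and 1191 in WT replicates 1, 2 and 3. After scaling, the gene had 170, 187 and 181 normalized counts in LOG OX1, against 1138, 1102 and 1076 in WT. Every LOG OX1 library lay below every WT library, and the lowest WT value was 5.75 times the highest LOG OX1 value. The means were 180 ± 8.45 normalized counts in LOG OX1 and 1106 ± 31.3 in WT (SD, n = 3 each).

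The log2 fold change of LOG OX1 over WT was -2.62 for the aureochrome-labelled gene (standard error 0.061), so that 16.3% of the WT level was present in LOG OX1. In the 9 pairings of a LOG OX1 library with a WT library, the LOG OX1 value was between 14.97% and 17.4% of the WT value. The gene was picked because it was lower in this same comparison, so these values are a description and no p-value is given for it.

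The C1-labelled gene was also lower in LOG OX1, by a smaller factor. Its raw counts were 898, 1160 and 889 in LOG OX1 replicates 1, 2 and 3, against 1963, 2153 and 2122 in WT replicates 1, 2 and 3. The normalized counts were 987, 1069 and 1000.3 in LOG OX1, against 2048, 2049.8 and 1917 in WT. The groups did not overlap, with LOG OX1 replicate 2 the highest of its group and WT replicate 3 the lowest of its own, 1.79 times apart. The means were 1019 ± 43.8 normalized counts in LOG OX1 and 2005 ± 76.2 in WT (SD, n = 3 each).

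For the C1-labelled gene the log2 fold change was -0.97 (standard error 0.047), which left 50.9% of the WT level in LOG OX1. Pairings of single libraries gave between 48.1% and 55.7%. The decrease was 1.97-fold, against 6.14-fold for the aureochrome-labelled gene. This gene too was chosen on the comparison itself and is given without a p-value.

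**Figure D1:**
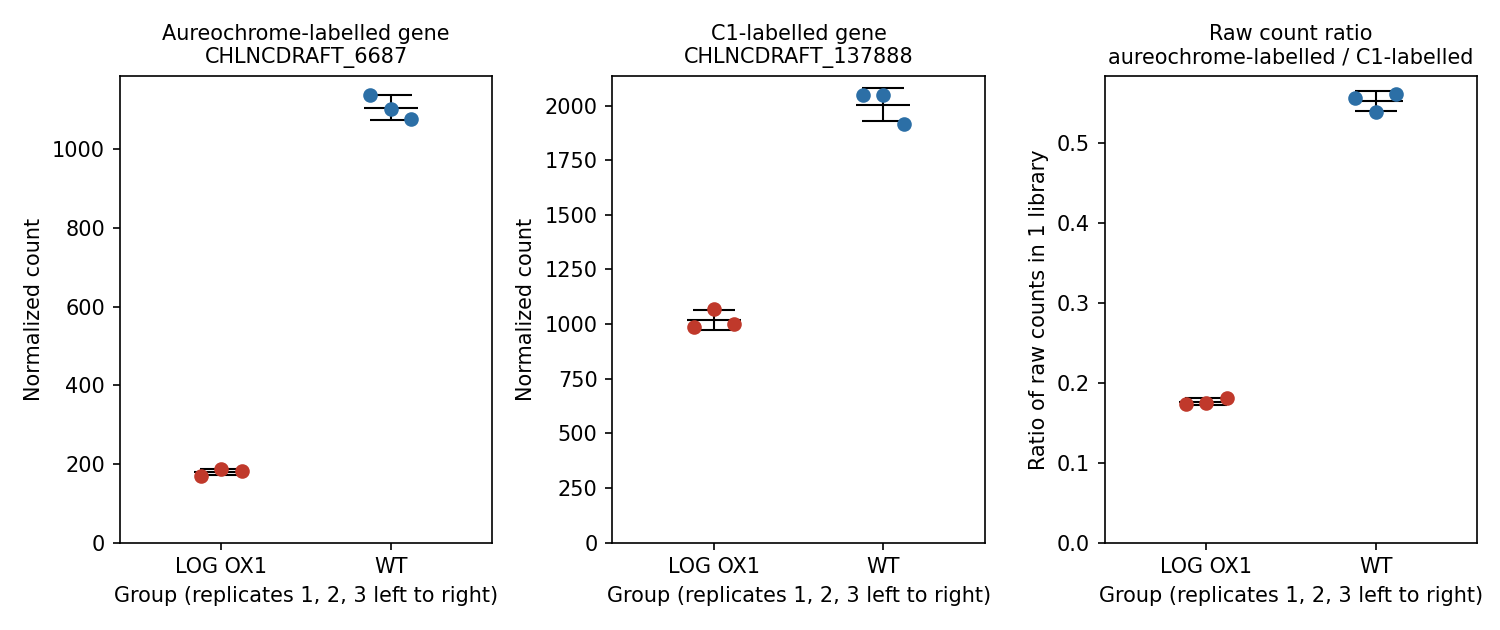
Normalized counts of the aureochrome-labelled gene (left) and of the C1-labelled gene (middle), and the ratio of their raw counts within each library (right), on axes that start at 0. Each point is 1 library and the black bars are the mean ± SD of 3 libraries, with LOG OX1 in red and WT in blue: in all 3 panels the LOG OX1 points lie below the WT points without overlap, at means of 180 and 1106, 1019 and 2005, and 0.176 and 0.552.

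Of these 2 genes, both had their LOG OX1 libraries wholly below their WT libraries, which held for 37.4% of the 9101 genes that passed the filter on low counts. The opposite order held for 36.9%, so that the groups did not overlap at 74.2% of genes. Genes were called by the edgeR test, where the study used DESeq, so the shares called are not those of the study. The thresholds were those of the study, a difference of 1.5-fold or more with an adjusted p no higher than 0.05. Both genes also lie among the 14.6% of genes tested that were called lower, while 28.6% were called in either direction. Both counts follow from how the genes were chosen, and nothing is read from them as a test. Over all genes, 1274 were called higher and 1328 lower in LOG OX1, and with upper-quartile scaling factors 1673 were called higher and 1068 lower. A decrease of at least 2-fold was called for 6.74% of the genes. The aureochrome-labelled gene reached it, and the C1-labelled gene, at 1.97-fold, lay just short of it. Without LOG OX1 replicate 2, or without WT replicate 3, the C1-labelled gene passed 2-fold too (log2 fold change -1.01 in either case). Leaving out any other single library kept it short of 2-fold. With upper-quartile factors its log2 fold change was -0.86, further from that threshold.

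Over all genes tested, the median log2 fold change was 0.0010. The middle 90% of the genes, from the 5th to the 95th percentile, ran from -1.16 to 1.18. The aureochrome-labelled gene stood outside that range, with the 82nd largest decrease of the 9101 genes. Among the 1328 genes called lower in LOG OX1, 6.10% decreased by a larger factor than it did. The C1-labelled gene lay near the middle of that set, with 47.9% of the called genes decreasing more, and its log2 fold change of -0.97 stood beside a median of -0.95 over the 1328.

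**Figure D2:**
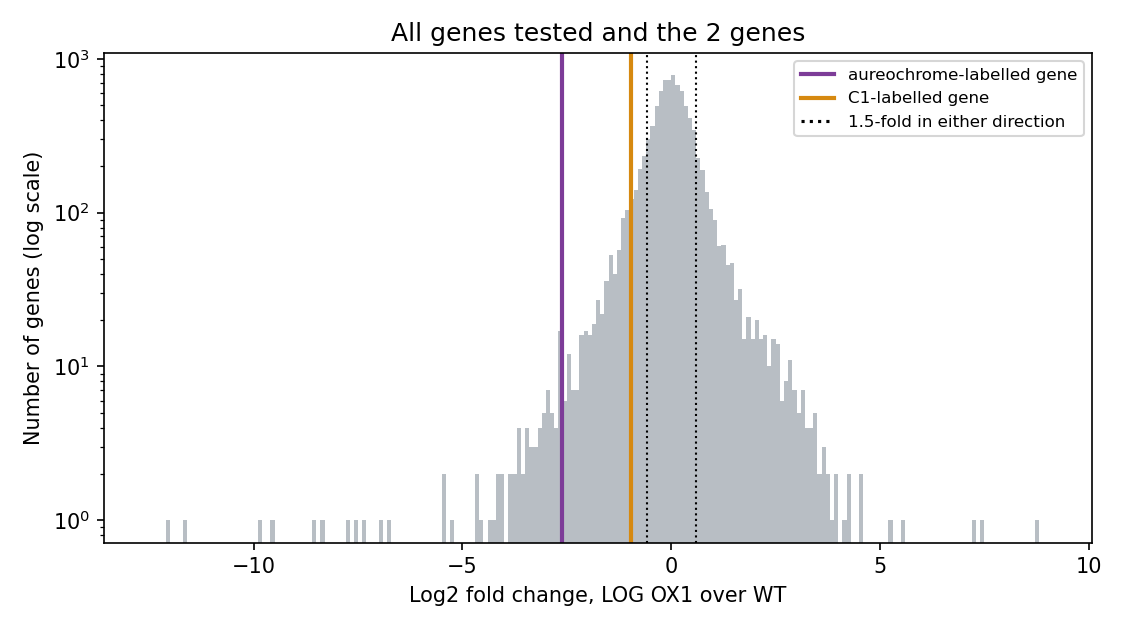
Log2 fold change of LOG OX1 over WT for the 9101 genes tested, as a histogram with the number of genes on a log scale, and the 2 genes as vertical lines. The aureochrome-labelled gene (purple, -2.62) lies in the left tail and the C1-labelled gene (orange, -0.97) beyond the dotted line at a 1.5-fold decrease.

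The ratio of the raw counts of the 2 genes in a library does not depend on how libraries are scaled. It was 0.173, 0.175 and 0.181 aureochrome-labelled counts per C1-labelled count in LOG OX1 replicates 1, 2 and 3, against 0.556, 0.538 and 0.561 in WT replicates 1, 2 and 3. The ratio was thus 3.13 times higher in WT, with means of 0.176 ± 0.0044 in LOG OX1 and 0.552 ± 0.012 in WT (SD, n = 3 each). With each library left out in turn it stayed between 3.10 and 3.17 times. Gene lengths were not used, so the ratio does not say which transcript was the more abundant in either group, but its change shows that the 2 genes did not fall by a common factor.

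Replicate cultures varied by less than counting error gives at the aureochrome-labelled gene, and by more than that at the C1-labelled gene. The coefficient of variation of the aureochrome-labelled gene was 4.71% in LOG OX1 and 2.83% in WT, where counting error alone gives 7.60% and 2.95%. For the C1-labelled gene it was 4.30% in LOG OX1 and 3.80% in WT, against 3.19% and 2.19% from counting error. Among the genes whose mean normalized count was within a factor that allows 25% more in the larger of 2 genes, the median coefficient of variation was 7.46% in LOG OX1 and 3.79% in WT around the aureochrome-labelled gene, and 3.61% in LOG OX1 and 3.29% in WT around the C1-labelled gene. Of those genes, 25.8% in LOG OX1 and 34.0% in WT varied less than the aureochrome-labelled gene, and 61.0% in LOG OX1 and 62.1% in WT varied less than the C1-labelled gene.

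All libraries were taken at 1 time of day. A shift in the timing of a daily rhythm and a change of level throughout the day therefore cannot be told apart for either gene. In RNA from whole cultures, fewer cells that express a gene and less RNA of it per cell cannot be told apart either. The paper reports that LOG OX1 and WT cells were spread differently over the cell cycle at this time. A link of that to either gene was not tested. All LOG OX1 cultures were of 1 transgenic line, so effects of CvarLOG1 and of that line cannot be told apart.

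Of the 4 genes that flank the 2 loci, 1 was called, and it was higher in LOG OX1, where 28.6% of all genes tested were called in either direction. With each library left out in turn, between 1 and 3 of the 4 were called, because 2 of them lie at the fold threshold. In the RefSeq annotation of the NC64A genome (assembly version 1.0) no other gene overlaps either of them. Directly beside the aureochrome-labelled gene, CHLNCDRAFT_143807 had 285, 277 and 224 normalized counts in LOG OX1 replicates 1, 2 and 3, against 117, 101 and 111 in WT replicates 1, 2 and 3. It rose in LOG OX1, opposite to its neighbour (log2 fold change 1.26, standard error 0.11, edgeR adjusted p = 3.95e-08). On the other side, CHLNCDRAFT_143811 had 379, 302 and 302 normalized counts in LOG OX1, against 217, 224 and 219 in WT. Its groups did not overlap, but its 1.49-fold difference was below the threshold of 1.5 (log2 fold change 0.57, standard error 0.095, edgeR adjusted p = 4.83e-05). It passed that threshold without LOG OX1 replicate 2 (log2 fold change 0.63), without LOG OX1 replicate 3 (0.63), without WT replicate 2 (0.59) and with upper-quartile factors (0.68).

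Beside the C1-labelled gene, CHLNCDRAFT_137887 had 297, 220.2 and 251 normalized counts in LOG OX1 replicates 1, 2 and 3, against 330, 284 and 317 in WT. The groups overlapped and the fold threshold was not met (log2 fold change -0.28, standard error 0.10, edgeR adjusted p = 0.021). CHLNCDRAFT_137889, on the other side, had 156, 205 and 173 normalized counts in LOG OX1, against 286, 259 and 261 in WT. It lay lower in all 3 LOG OX1 libraries and only just under the fold threshold, at 1.495-fold (log2 fold change -0.58, standard error 0.10, edgeR adjusted p = 7.28e-05). It passed the threshold without LOG OX1 replicate 2 (log2 fold change -0.70), without WT replicate 2 (-0.61) or 3 (-0.60), and with no scaling factors beyond library size (-0.60).

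Within 5 places on each side, 17 of the 20 neighbours passed the filter on low counts, and the other 3, all beside the aureochrome-labelled gene, had at most 4 counts in any library. Of the 7 tested around the aureochrome-labelled gene, 2 were called higher and 1 lower in LOG OX1, with log2 fold changes between -0.81 and 1.26. Of the 10 tested around the C1-labelled gene, 1 was called higher and 1 lower, between -0.89 and 1.24. The lowest tested neighbour of the aureochrome-labelled gene, at -0.81, was far from its -2.62. The lowest neighbour of the C1-labelled gene, CHLNCDRAFT_137883, was close to it, at -0.89 with a standard error of 0.071. Background rates were 14.6% for genes called lower and 14.0% for genes called higher.

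**Figure D3:**
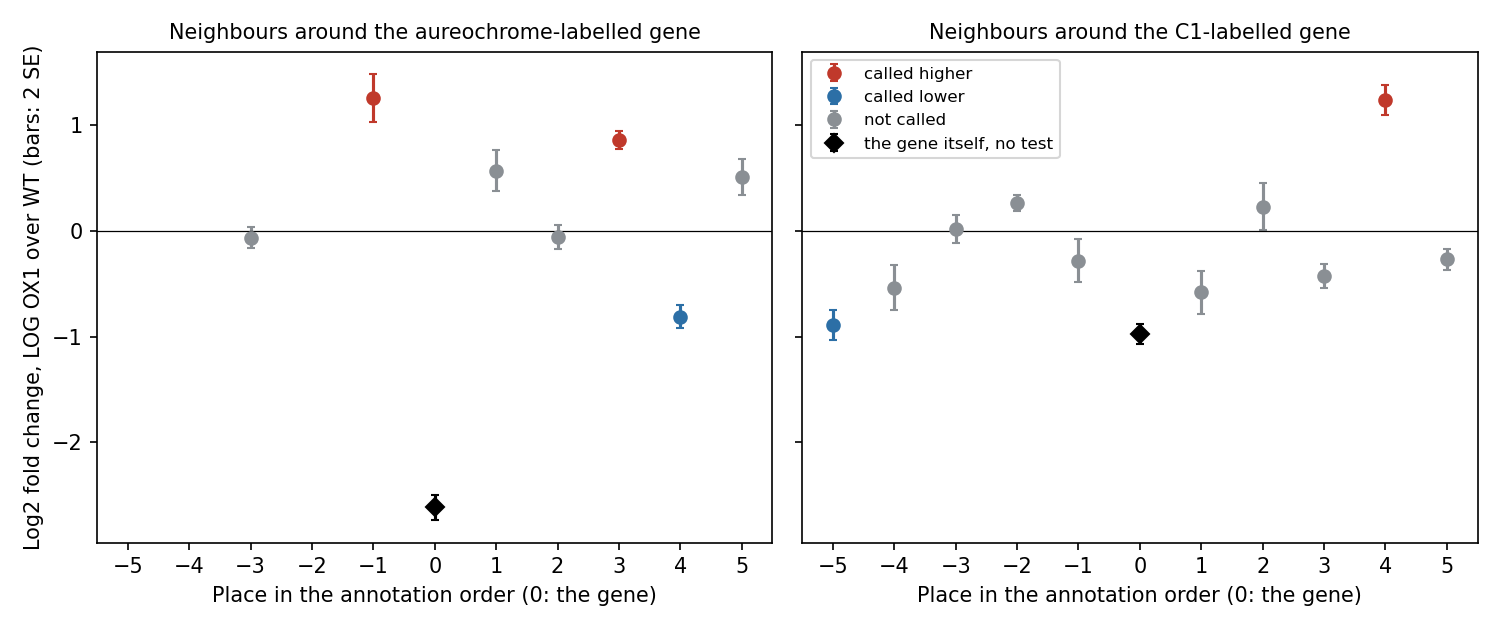
Log2 fold change of LOG OX1 over WT for the genes within 5 places of the aureochrome-labelled gene (left) and of the C1-labelled gene (right), in the order of the RefSeq annotation. Bars are 2 standard errors, the black diamond is the gene itself, red, blue and grey points are genes called higher, called lower and not called, and places without a point are genes that did not pass the filter. The diamond at -2.62 lies well under all its tested neighbours, and that at -0.97 is close to the neighbour at place -5 (-0.89).

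The study's table of differentially expressed genes places 12 further genes among the protein kinases, the pathway to which the aureochrome-labelled gene was assigned. Of these 12, 7 were called higher and 5 lower in LOG OX1, with median log2 fold changes of 1.10 and -1.10. The median of all 12 was 0.87, beside a median of 0.0010 over all genes tested. The list was drawn up from genes that had changed in these same libraries, so that every member was called says nothing independent. Genes near 0 could not be on it, so its median reflects the split between directions and is not comparable with that of all genes. Kinases with the largest increases were a mitogen-activated protein kinase, CHLNCDRAFT_145010 (log2 fold change 1.93, standard error 0.11), and a possible dual-specificity kinase, CHLNCDRAFT_10750 (1.71, standard error 0.16). Mitogen-activated protein kinases relay extracellular and stress signals.

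The largest decreases among these 12 kinases were those of CHLNCDRAFT_15246, labelled as a cdc2-related kinase, the family that drives the cell cycle (log2 fold change -1.66, standard error 0.19), and of CHLNCDRAFT_30865, labelled as a GTPase of the ROCO family with leucine-rich repeats (-1.22, standard error 0.047). CHLNCDRAFT_15246 had 19.8, 24.9 and 29.3 normalized counts in LOG OX1, against 73.0, 82.8 and 77.7 in WT. The decrease of the aureochrome-labelled gene (-2.62) was thus larger than that of any of the 5 listed kinases that were lower in LOG OX1. This describes a list on which the gene had itself been placed for being lower.

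The term RNA binding, which the C1-labelled gene carries, was given by the same table to 9 further genes, of which 6 were called higher and 3 lower, with a median log2 fold change of 0.91. These genes were also listed for having changed in these libraries, so their median too reflects the split between directions. By protein name, pathway or gene ontology term, the 6 that rose have labels of ribosome assembly, RNA modification or RNA helicases. Largest was the rise of CHLNCDRAFT_143267, labelled as an assembly protein of pre-ribosomal particles, with 9677 ± 265 normalized counts in LOG OX1 and 4076 ± 279 in WT (SD, n = 3 each) and a log2 fold change of 1.25. An ATP-dependent RNA helicase, CHLNCDRAFT_26393, followed with 1.09 (standard error 0.16).

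The 3 RNA-binding genes that were lower beside the C1-labelled gene had no label that names a clock role. CHLNCDRAFT_20050, uncharacterized and placed under the spliceosome, the machine that removes introns, gave a log2 fold change of -1.36 (standard error 0.14). CHLNCDRAFT_35116, also uncharacterized, had -0.98 (standard error 0.088), close to the -0.97 of the C1-labelled gene. CHLNCDRAFT_32365, labelled as part of an ABC transporter, had -0.74 (standard error 0.050).

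**Figure D4:**
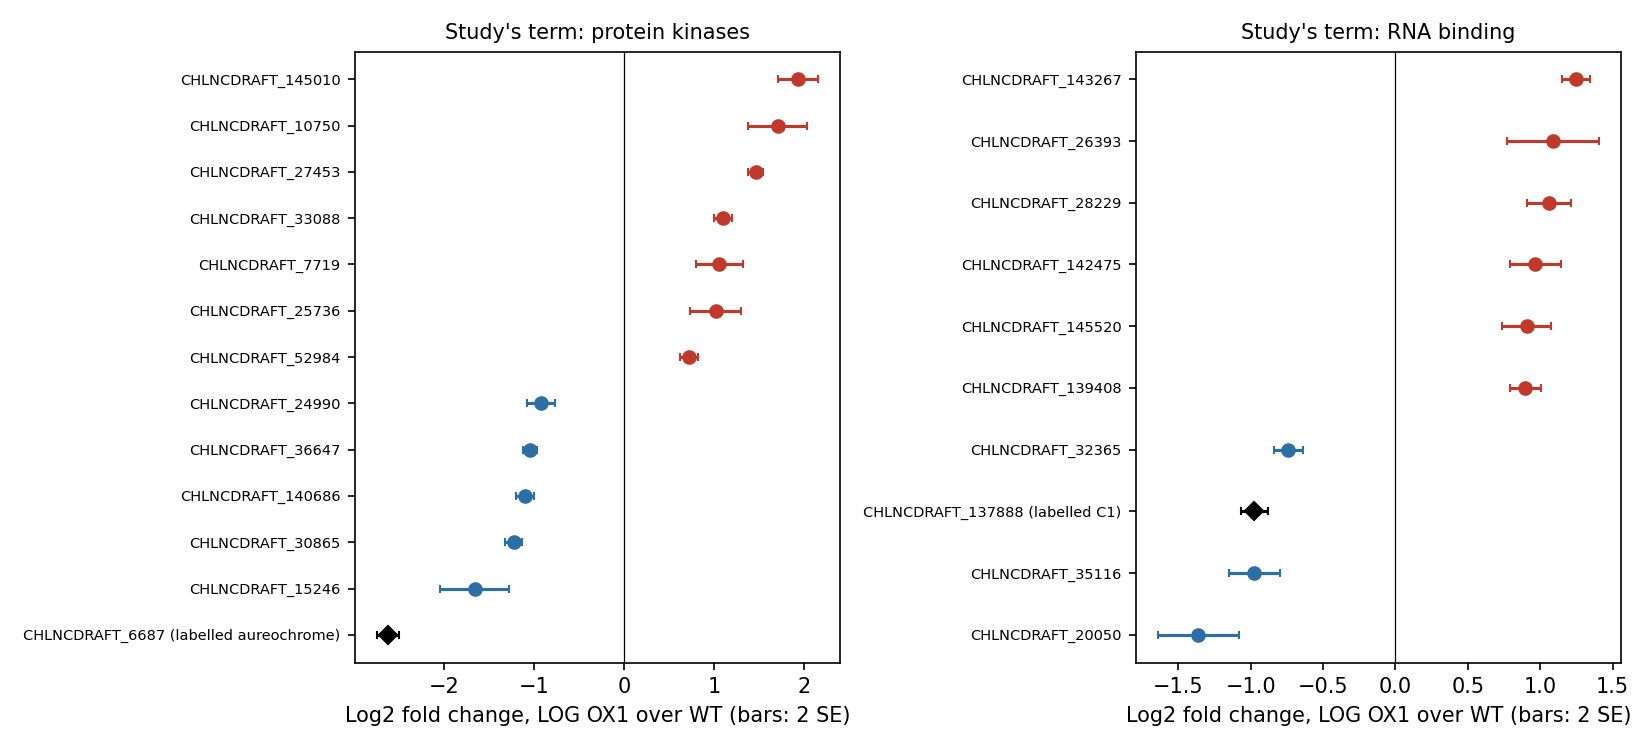
Log2 fold change of LOG OX1 over WT, with bars of 2 standard errors, for the genes that the study's table places under protein kinases (left) and gives the term RNA binding (right). Red points were called higher and blue points lower, and the black diamonds are the aureochrome-labelled gene, lowest of its panel at -2.62, and the C1-labelled gene, at -0.97 with 2 genes below it.

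Genes with the most similar pattern were found by the root mean square distance between log2 normalized counts over the 6 libraries, each gene centred on its WT mean. The C1-labelled gene was the 601st nearest gene to the aureochrome-labelled gene, at a distance of 1.16, and the aureochrome-labelled gene was the 7913th nearest to the C1-labelled gene. The 5 nearest to the aureochrome-labelled gene lay at distances between 0.041 and 0.072. They were CHLNCDRAFT_133981, CHLNCDRAFT_59081, CHLNCDRAFT_9818, CHLNCDRAFT_137544 and CHLNCDRAFT_56797, none of which has a protein name in the study's table. Their log2 fold changes ran from -2.68 to -2.58, and CHLNCDRAFT_133981 had 688, 733 and 719 normalized counts in LOG OX1, against 4599, 4652 and 4361 in WT.

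The nearest patterns to the C1-labelled gene were closer, at distances between 0.020 and 0.035. Of these 5 genes, CHLNCDRAFT_32279, CHLNCDRAFT_58151, CHLNCDRAFT_134390 and CHLNCDRAFT_9947 have no protein name in the table. The other, CHLNCDRAFT_55979, is labelled inositol-3-phosphate synthase, which makes the precursor of inositol from glucose 6-phosphate. It had 1168, 1209.6 and 1148 normalized counts in LOG OX1, against 2325, 2369 and 2168 in WT, and a log2 fold change of -0.96. With 2 groups, the distance mostly measures how close 2 fold changes are, and it says nothing of shared control.

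**Figure D5:**
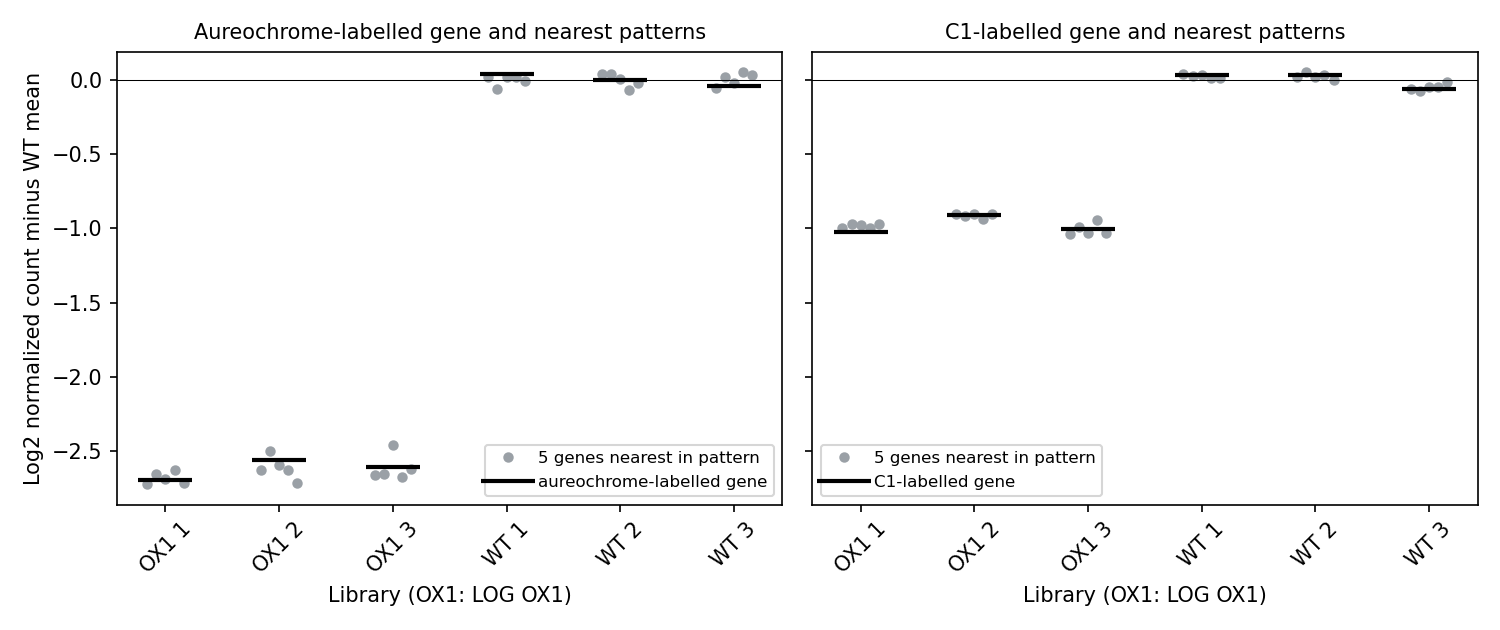
Log2 normalized count minus the WT mean of each gene in the 6 libraries (horizontal axis), for the aureochrome-labelled gene (left) and the C1-labelled gene (right) as black bars and for the 5 genes nearest to each in pattern as grey points. The LOG OX1 libraries lie near -2.6 on the left and near -1.0 on the right, and the grey points lie close to the bars in all libraries.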

How the data were processed

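Counts per gene were deposited for each library without normalization. Per the study's methods, the authors trimmed reads with Trim Galore, aligned them to the NC64A genome with HISAT2 (default settings) and used HTSeq for counting. The libraries were made with a directional RNA kit. Tool versions, the strand setting of the counting and the annotation release are not given in the sources used here. Reads of a gene and of an antisense partner may therefore not have been told apart in the counts. Total counts were 10180885 to 12546100.

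All 9625 gene identifiers matched the RefSeq annotation, assembly version 1.0, used for locus names, gene order and gene overlaps. A new scaffold was taken to begin where the start coordinate decreased. edgeR 4.0.16 (limma 3.58.1, R 4.3.3) was used with filterByExpr (minimum count 10, 9101 genes kept), TMM factors and the quasi-likelihood F test with a single term for group, where the study used DESeq. Benjamini-Hochberg adjustment ran over all genes tested. A called gene had an adjusted p no higher than 0.05 and differed by 1.5-fold or more. Standard errors were obtained by dividing the absolute log2 fold change by the root of F. The pattern distance added 0.5 to normalized counts. Replicates differed by more than counting noise (chi-squared per degree of freedom 2.42 to 7.33). Other steps used Python 3.11.15. The test code was run on simulated counts with planted changes and the same dispersion for all genes. That run checks the code and does not measure error rates in these data.

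Named genes were the 2 genes, CvarLOG1, the flanking gene on each side, the 5 nearest in pattern to each and, of each study list, the called genes that rose most (2) and fell most (2). CHLNCDRAFT_137883 and CHLNCDRAFT_32365 were chosen after their values were seen, and the window of 5 places was set after the data were examined. The 2 genes and the lists were chosen with earlier results of these data known. Lists by protein motif, protein similarity or product name were not analysed here. Fold changes and p-values in the study's tables hold its own comparison and were not used. Alternatives tried were the exact test of edgeR, DESeq2 1.42.0, glmTreat against 1.5-fold, RLE, upper-quartile and no factors, no filter on low counts, a filter of 10 counts or more in each library, other fold thresholds, the replicate number as a block and each library left out in turn.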

Additional observations from a re-analysis of the deposited data

How the results depend on the processing

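With upper-quartile factors, which moved the median of all genes by 0.11 on the log2 scale, the log2 fold change was -2.51 for the aureochrome-labelled gene and -0.86 for the C1-labelled gene. Relative to that median they were -2.62 and -0.98. Under the other 13 alternatives both moved by less than the spread between replicates. With each library left out in turn, they ranged from -2.65 to -2.58 and from -1.01 to -0.95. The calls in the kinase list (7 higher, 5 lower) and the RNA-binding list (6 higher, 3 lower) had the same counts under all 15 alternatives. Over all genes, 1274 were called higher and 1328 lower in LOG OX1, and upper-quartile factors gave 1673 higher and 1068 lower. A fold change of at least 2 gave 580 higher and 613 lower, and no fold threshold gave 3249 and 3287.

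Of the 4 flanking genes, 1 was called. The count was 2 with upper-quartile factors, 2 with library size only and between 1 and 3 with each library left out. CHLNCDRAFT_143811 and CHLNCDRAFT_137889, both at the fold threshold, account for the changes. With the replicate number as a block the count of flanking genes called was 2, with CHLNCDRAFT_137889 at -0.59, and the log2 fold changes of the 2 genes were -2.62 and -0.98. The labels do not say whether same-numbered cultures were handled together. Deviations of same-numbered libraries from their group means had correlations of -0.036, -0.0049 and -0.12. No LOG OX1 library correlated best with the WT library of its own number. Correlations among so few libraries cannot decide whether the numbers paired the cultures. The alternative thresholds of protein similarity were not run.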
